A study of Homo sapiens with 9 samples.

Results

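PANC-1 is an established human line of pancreatic ductal carcinoma cells. The comparison described here sets PANC-1 cells that overexpress SLC22A15 (SLC22A15_OE) against PANC-1 cells carrying an empty vector, and asks across all expressed genes what the SLC22A15 line changed and which of those changes it did not share with a line overexpressing another transporter of the same family, SLC22A10 (SLC22A10_OE). All 3 groups were made by lentiviral transduction (plasmids pLV-EV, pLV-SLC22A10 and pLV-SLC22A15), were selected with puromycin and were kept in puromycin as stable clones, so the control carries a lentivirus and the drug too. The comparison uses 6 of the 9 libraries of the series, 3 per group, and 14554 of the 16750 genes in the table, those with at least 1 CPM (counts per 1000000 reads of a scaled library size) in at least 3 of the 9 libraries. The labels call every group "clones" without giving their number or saying whether the libraries of a group came from separate clones or cultures. Sample titles end in A1, A2 and B1 in every group, and whether A and B mark separate clones or cultures is not stated. The p-values therefore rest on how much these libraries vary, and that variation may be technical. A difference between 2 stably transduced lines can come from the transgene or from the line, and these cannot be told apart with 1 line per gene.

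SLC22A15 belongs to the SLC22 family of membrane transporters for organic cations, anions and zwitterions. Its relatives include organic cation transporters and the carnitine and ergothioneine transporters SLC22A5 and SLC22A4. SLC22A15 itself is known as a transporter of zwitterions, ergothioneine among them.

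Library totals ran from 31.0 to 42.9 M reads in SLC22A15_OE and from 32.3 to 37.6 M reads in vector (28.4 to 39.3 M in SLC22A10_OE), and 1 CPM stood for 31.5 to 43.4 reads in the 6 libraries of the former groups. In library 1 of SLC22A15_OE and of vector and in library 3 of SLC22A10_OE the mitochondrial ribosomal RNAs took 0.00958% to 0.0151% of the reads, against 0.0454% to 0.0843% in the other 6. Of 9 markers of pancreatic duct cells, 6 could be read, and their summed level was 295 to 330 CPM in SLC22A15_OE and 440 to 479 CPM in vector. KRT8, KRT18, KRT19 and SOX9 were well expressed, and KRT7 stayed under 1 CPM in all 6 libraries. The members did not move together. Means of KRT7, KRT8, KRT18 and SOX9 were lower in SLC22A15_OE than in vector. KRT19 differed little, at 70.2 CPM against 73.2 CPM in vector, and MUC1 was higher, at 8.37 CPM against 4.16 CPM. None of the 5 acinar or the 5 fibroblast or stellate markers could be read, since the table holds none of them, so their levels are not known. Of the markers of islet cells, endothelium and leukocytes 1 each could be read, CHGA, CDH5 and CD14, and each stayed under 3 CPM in all 6 libraries, CDH5 at 0.901 to 1.45 CPM in vector and 2.52 to 2.86 CPM in SLC22A15_OE.

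The transduced gene was read first. SLC22A15 stood at 78.3, 73.3 and 76.1 CPM in SLC22A15_OE libraries 1 to 3 and at 6.52, 6.36 and 5.46 CPM in the vector libraries. All 3 SLC22A15_OE libraries lay above all vector libraries, a 12.4-fold difference of the means and a log2 fold change of 3.44 (SE 0.09, limma adjusted p = 1.86e-11). Here and below the log2 fold change is the difference of the group means of log2(CPM + 1), SLC22A15_OE minus vector, which understates the change of genes at low CPM. An exact two-sided permutation test of the 3 against 3 libraries gave p = 0.1, the smallest value this design allows. SLC22A10_OE held a mean of 3.84 CPM of SLC22A15, below vector. The other 8 tested SLC22 genes did not pass the test, while with library number as a replicate block among the 6 libraries 1 of them, the pseudogene SLC22A20P, was lower (log2 fold change -0.31). SLC22A5, the carnitine transporter, had a mean of 40.8 CPM against 37.9 CPM in vector, and SLC22A4, the ergothioneine transporter, had 2.75 CPM against 3.16 CPM. SLC22A10 had 0 reads in every SLC22A15_OE library.

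In SLC22A15_OE, 1572 genes were higher than in vector and 1394 were lower (limma, Benjamini-Hochberg adjusted p under 0.05), which is 10.8% and 9.58% of the genes tested. The changes were mostly small. A log2 fold change of at least 1 was reached by 56 of the higher and 83 of the lower genes, while 68.7% of the higher and 70.5% of the lower genes changed by less than 0.5. The 3 SLC22A15_OE libraries lay entirely above the 3 vector libraries in 18.1% of all genes tested and entirely below them in 16.6%. In bulk RNA, fewer cells that express a gene and less RNA of it per cell cannot be told apart. With library number as a replicate block among the 6 libraries, 2980 genes were higher and 2942 lower; this fit is called the replicate block below. With a term that marks the 3 libraries low in mitochondrial ribosomal RNA, the counts were 2868 and 2740, and without those libraries 2337 and 2157.

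To separate what the SLC22A15 line alone changed, genes were asked to pass the test against vector and also against SLC22A10_OE, in the same direction. By this rule 426 genes were higher in SLC22A15_OE alone (2.93% of the genes tested) and 495 were lower (3.4%). "Alone" means here that SLC22A15_OE lay beyond both vector and SLC22A10_OE; SLC22A10_OE may itself differ from vector for such a gene, on either side. The genes made up 27.1% of all genes higher than vector and 35.5% of all genes lower. Their median log2 fold change against vector was 0.37 for the higher and -0.40 for the lower genes. With the same term the rule took 941 and 1029 genes, and without the 3 libraries 712 and 774. A size of at least 1 in both contrasts was reached by SLC22A15 itself as the only higher gene, and by 6 lower genes. A scatter of the 2 contrasts over all genes shows these sets.

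**Figure D1:**
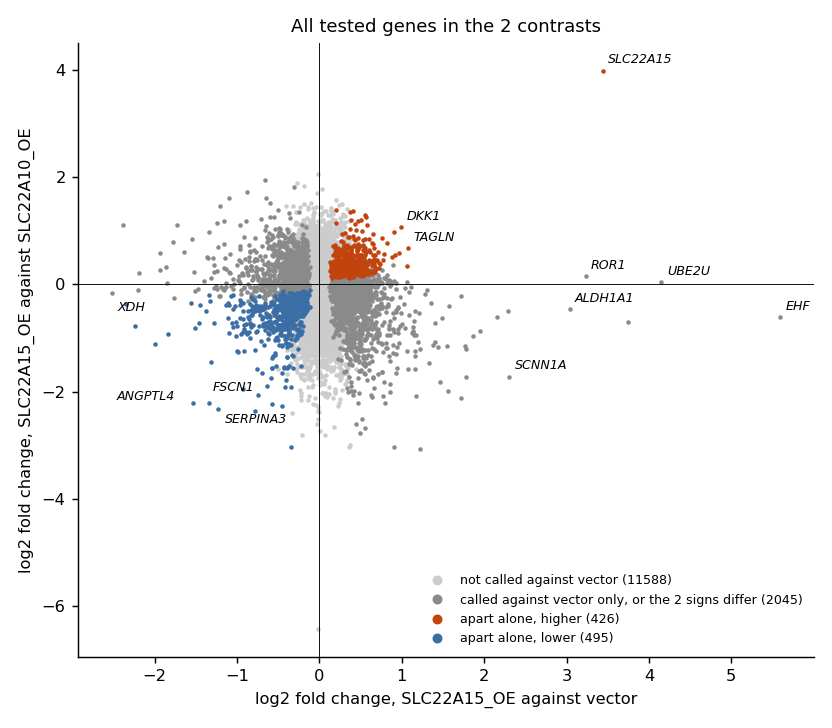
Each point is 1 of the 14554 tested genes, with its log2 fold change in SLC22A15_OE against vector (x axis) and against SLC22A10_OE (y axis). The 426 orange genes and 495 blue genes passed the test in both contrasts with the same sign; SLC22A15 stands apart at the upper right, while the largest risers against vector, EHF and UBE2U, lie near or below 0 on the y axis.

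The largest rise in SLC22A15_OE was in EHF, an ETS-family transcription factor of epithelial cells. It stood at 5.63, 5.26 and 5.22 CPM in the vector libraries and at 288, 311 and 321 CPM in the SLC22A15_OE libraries, a log2 fold change of 5.59 (SE 0.05, limma adjusted p = 5.75e-16). SLC22A10_OE had a mean of 468 CPM, so that EHF was high in both overexpressing lines and higher in SLC22A10_OE. ALDH1A1, a cytosolic aldehyde dehydrogenase that makes retinoic acid from retinal, stood at 125, 144 and 133 CPM in vector and at 1045, 1121 and 1145 CPM in SLC22A15_OE (log2 fold change 3.04). In SLC22A10_OE its mean was 1514 CPM. SCNN1A, which encodes a subunit of the sodium channel ENaC, rose from 11.3, 8.55 and 10.0 CPM to 54.8, 51.5 and 52.4 CPM (log2 fold change 2.30), and was at 177 CPM in SLC22A10_OE. HDAC9, a class IIa histone deacetylase, rose from 83.5, 89.1 and 86.1 CPM to 299, 322 and 332 CPM (log2 fold change 1.87), beside 617 CPM in SLC22A10_OE. The largest risers and fallers were taken only from genes whose SLC22A15_OE and vector libraries do not overlap. In EHF, ALDH1A1, SCNN1A and HDAC9 the SLC22A10_OE mean lay above that of SLC22A15_OE.

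Neighbouring genes at 1 locus of chromosome 1 were among the 5 largest risers. ROR1, a receptor of the ROR family that binds Wnt ligands, stood at 11.04, 9.76 and 8.83 CPM in vector and 98.2, 105 and 99.4 CPM in SLC22A15_OE. Its antisense transcript ROR1-AS1 stood at 9.97, 12.3 and 12.8 CPM and 152, 179 and 174 CPM. UBE2U, a ubiquitin-conjugating enzyme gene, stood at 1.85, 2.08 and 1.62 CPM and 47.2, 50.8 and 50.5 CPM. Their log2 fold changes were 3.23, 3.74 and 4.15. The libraries were made with a strand-specific kit, but whether the counting used strand is not stated in the sources used here, and reads of ROR1 and of ROR1-AS1 may not be told apart. In RefSeq on GRCh38 ROR1 lies at chr1:63774017-64181498, ROR1-AS1 at chr1:64094442-64113791 and UBE2U at chr1:64203623-64267368. Within 1 Mb of UBE2U, 13 other genes were tested, and beside ROR1 and ROR1-AS1 only PGM1, phosphoglucomutase, rose (log2 fold change 0.37). CACHD1, AK4 and DNAJC6 fell there by 0.41, 0.59 and 0.83 on the log2 scale. Around EHF, at chr11:34621093-34663288, none of 11 other tested genes rose, and CD44, the hyaluronan receptor, fell from 1363, 1475 and 1461 CPM to 748, 794 and 797 CPM (log2 fold change -0.88).

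The other risers among the 12 largest were genes of low level in vector. PDZK1IP1, a small membrane protein, went from a mean of 2.74 CPM to 17.1 CPM, TSPAN15, a tetraspanin partner of the protease ADAM10, from 1.67 CPM to 10.9 CPM, and SSTR5, a somatostatin receptor, from 1.92 CPM to 10.3 CPM. ZNF467 on chromosome 7, a zinc finger gene, went from 2.95 CPM to 12.6 CPM. Each had a higher mean in SLC22A10_OE than in SLC22A15_OE. Of the 12 largest risers, SLC22A15 was the only one that passed the rule for a change in SLC22A15_OE alone.

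The largest fall was in XDH, xanthine dehydrogenase, which makes uric acid at the end of purine breakdown. It stood at 14.3, 14.2 and 13.3 CPM in the vector libraries and at 1.87, 1.72 and 1.27 CPM in SLC22A15_OE (log2 fold change -2.52, SE 0.13, limma adjusted p = 2.27e-08). MYH15, a myosin heavy chain gene, fell from 42.2, 49.03 and 49.3 CPM to 7.33, 7.75 and 9.37 CPM (log2 fold change -2.39). SH3TC2, an adaptor of endosome recycling best known from Schwann cells, fell from 130.3, 129.9 and 128 CPM to 24.9, 24.5 and 24.5 CPM (log2 fold change -2.34). Its divergent transcript SH3TC2-DT fell from a mean of 6.65 CPM to 0.678 CPM, again with strand use in the counting not given. BHLHE41, a repressor of the circadian clock, fell from 26.2, 27.2 and 28.4 CPM to 4.60, 5.38 and 5.04 CPM (log2 fold change -2.23). SH3TC2, BHLHE41 and the zinc finger gene ZMAT1 were also lower than in SLC22A10_OE and so counted as changed in SLC22A15_OE alone, although each was below vector in SLC22A10_OE as well, at means of 32.3, 9.23 and 3.54 CPM.

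ELL2, a factor of transcription elongation, fell from 98.5, 109.5 and 104 CPM to 24.3, 28.8 and 26.3 CPM, and HLX, a homeobox gene, from 15.97, 14.6 and 13.6 CPM to 2.64, 2.60 and 2.03 CPM. Their log2 fold changes were -1.94 and -2.20. MCTP1, CDK15, PRND and ROBO4, an endothelial receptor of the Roundabout family, complete the 12, with log2 fold changes between -1.86 and -1.78 except for CDK15 at -1.94. CDK15 was lower still in SLC22A10_OE, at 0.114 CPM against 0.695 CPM in SLC22A15_OE and 5.45 CPM in vector. The plot of levels by library shows these 24 genes. They were chosen among genes whose SLC22A15_OE and vector libraries do not overlap, so that trait is not a result.

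**Figure D2:**
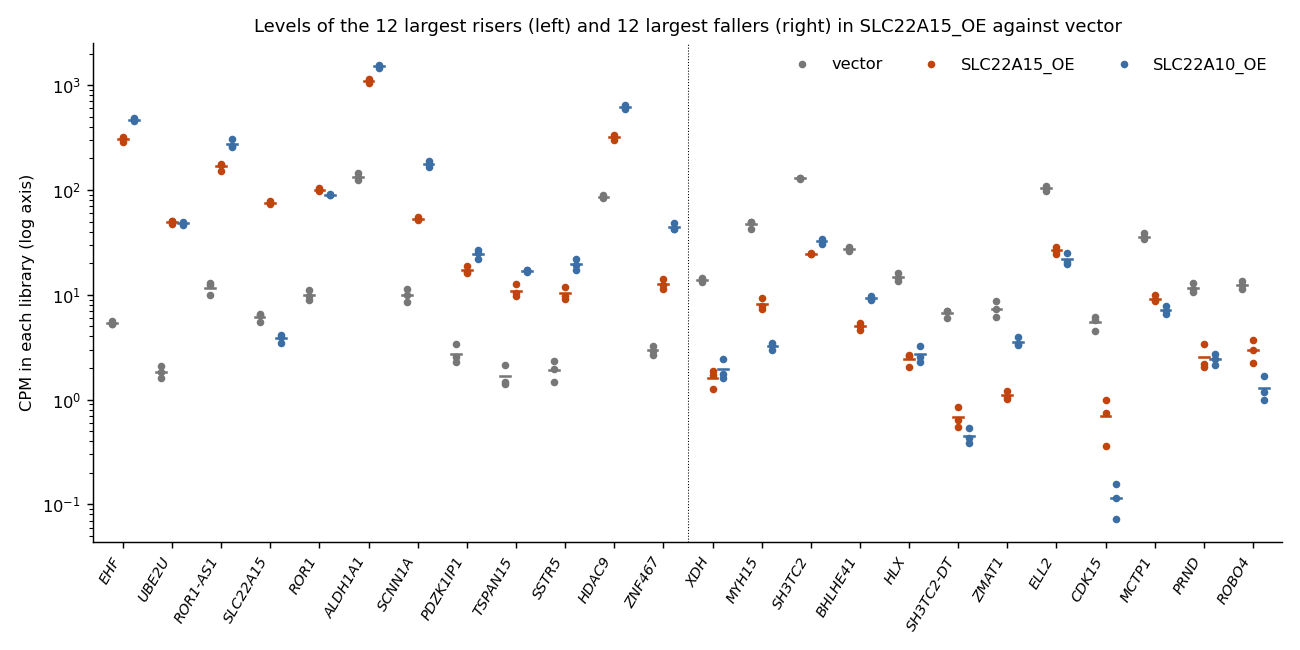
CPM on a log axis in each of the 9 libraries for the 12 largest risers and 12 largest fallers in SLC22A15_OE against vector; points are libraries, short lines are group means. Orange and grey points do not overlap because genes were chosen by that rule. The blue SLC22A10_OE points are drawn for their level and share the vector libraries as control.

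Among the genes higher in SLC22A15_OE alone, DKK1, a secreted Wnt antagonist that binds the LRP5 and LRP6 co-receptors, ranked next after SLC22A15 itself by the smaller of the 2 log2 fold changes. DKK1 stood at 9.84, 10.5 and 10.3 CPM in vector, at 21.4, 21.1 and 21.5 CPM in SLC22A15_OE and at a mean of 9.62 CPM in SLC22A10_OE. Its log2 fold changes were 0.99 against vector (limma adjusted p = 1.07e-06) and 1.08 against SLC22A10_OE (limma adjusted p = 1.25e-07). TAGLN, the actin-binding protein transgelin, stood at 11.7, 10.4 and 10.1 CPM in vector and 25.2, 22.8 and 22.8 CPM in SLC22A15_OE, with a mean of 14.4 CPM in SLC22A10_OE. TUBB2B, a beta tubulin, rose from 32.9, 25.5 and 29.0 CPM to 63.0, 54.7 and 55.5 CPM, and CXCL5, a chemokine that attracts neutrophils, from 46.9, 58.3 and 55.8 CPM to 89.9, 93.9 and 93.5 CPM. ID2, an inhibitor of bHLH transcription factors, rose from 56.3, 59.0 and 55.1 CPM to 88.2, 81.4 and 82.0 CPM and had 52.1 CPM in SLC22A10_OE. TLCD1 and DPYD-AS2 had smaller changes of 0.61 and 0.71 against vector. The remaining 4 of the 12, ACTR3B (an Arp3-like subunit of the actin nucleator), PRKAG2 (a regulatory subunit of AMP-activated kinase), LRRC4 and STAG3L2, rose by 0.66, 0.66, 0.58 and 0.56 on the log2 scale, and all 4 lie on chromosome 7 in stretches where most genes rose. STAG3L2 has near-identical copies on that chromosome, and its reads may be split among them.

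Genes lower in SLC22A15_OE alone were led by ANGPTL4, a secreted inhibitor of lipoprotein lipase. It stood at 18.6, 15.4 and 16.3 CPM in vector, 5.30, 5.23 and 4.79 CPM in SLC22A15_OE and a mean of 27.5 CPM in SLC22A10_OE. The log2 fold changes were -1.54 against vector (limma adjusted p = 4.39e-08) and -2.22 against SLC22A10_OE (limma adjusted p = 9.44e-10). FSCN1, the actin-bundling protein fascin, fell from 19.5, 15.4 and 15.4 CPM to 6.64, 5.36 and 5.94 CPM and was at 31.6 CPM in SLC22A10_OE. SERPINA3, the protease inhibitor alpha-1-antichymotrypsin, fell from 5.94, 7.03 and 4.77 CPM to 1.33, 1.82 and 2.76 CPM beside 13.6 CPM in SLC22A10_OE. For these 3 genes SLC22A10_OE lay above vector, so the lines stood on opposite sides of it.

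In the other genes of this set SLC22A10_OE stood at different distances from vector. AXL, the receptor tyrosine kinase for GAS6, stood at 109.9, 97.0 and 102 CPM in vector, 52.3, 51.7 and 54.1 CPM in SLC22A15_OE and 100.5 CPM in SLC22A10_OE (log2 fold change -0.95 against vector). DUSP6, the phosphatase that turns off ERK kinases, stood at 24.9, 21.6 and 21.4 CPM, 10.5, 9.65 and 10.0 CPM and 19.7 CPM in the same order (log2 fold change -1.10). KRT8, a keratin of simple epithelia, stood at 101, 82.7 and 91.0 CPM, 54.0, 44.0 and 44.6 CPM and 88.9 CPM (log2 fold change -0.93). ITGA2, the collagen-binding integrin alpha subunit, was at 5.88, 6.64 and 5.36 CPM in vector and 2.83, 2.50 and 2.95 CPM in SLC22A15_OE, and BTG1, an antiproliferative gene, at 16.5, 16.3 and 19.3 CPM and 7.18, 8.48 and 9.21 CPM. KLF12 fell by 1.00 on the log2 scale. RNF150 and AHNAK2 fell by 0.92 and 0.91, and had means of 12.1 and 162 CPM in SLC22A10_OE, above 5.40 and 128 CPM in vector.

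**Figure D3:**
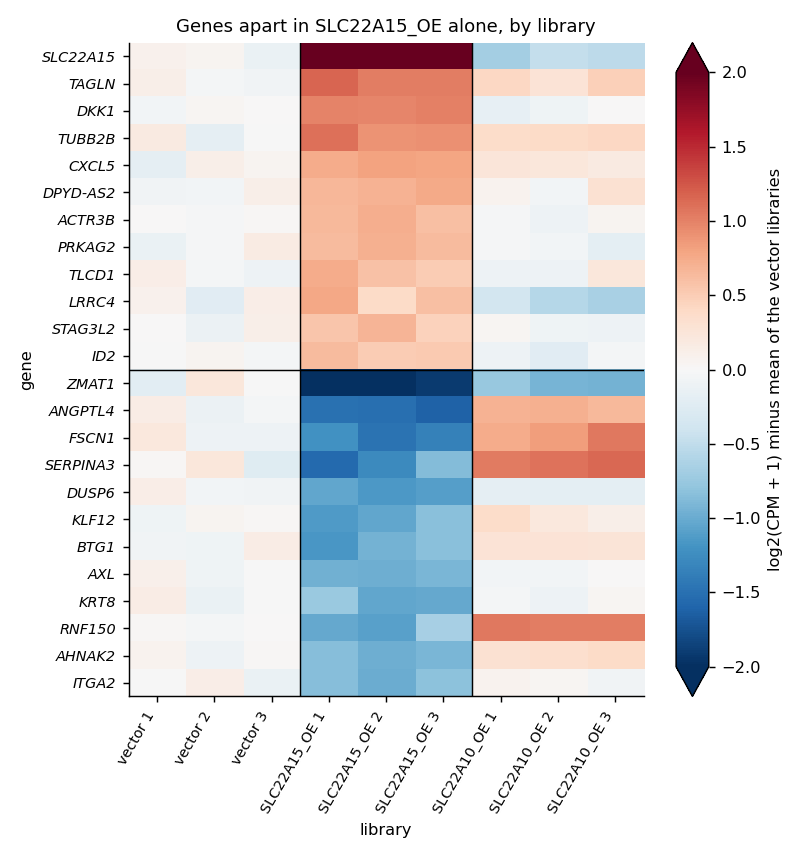
Log2(CPM + 1) minus the mean of the 3 vector libraries, for the 12 higher and 12 lower genes with the largest changes in SLC22A15_OE alone (rows) in each of the 9 libraries (columns); colours end at 2 in either direction. The middle 3 columns are the highest of each row above the line; below it, SLC22A10_OE is near vector for AXL and KRT8 and opposite in colour for ANGPTL4, FSCN1, SERPINA3 and RNF150.

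The genes were also read by 42 lists of pathways, families and cell markers, whose counts are set against 10.8% higher and 9.58% lower over all genes tested, and for changes in SLC22A15_OE alone against 2.93% and 3.4%. Counts with the replicate block are to be set against the 2980 higher and 2942 lower of 14554 genes that it called. Counts from any other setting belong beside the totals of that setting. Over all 924 tested genes in the lists, 175 were higher and 155 lower than vector. The bars of calls per list are ordered by the percent of members higher minus the percent lower, with the histone genes at one end and the integrins and immediate early genes at the other. By the percent lower alone, the largest share was in the list of the epithelial to mesenchymal transition (57.1%).

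**Figure D4:**
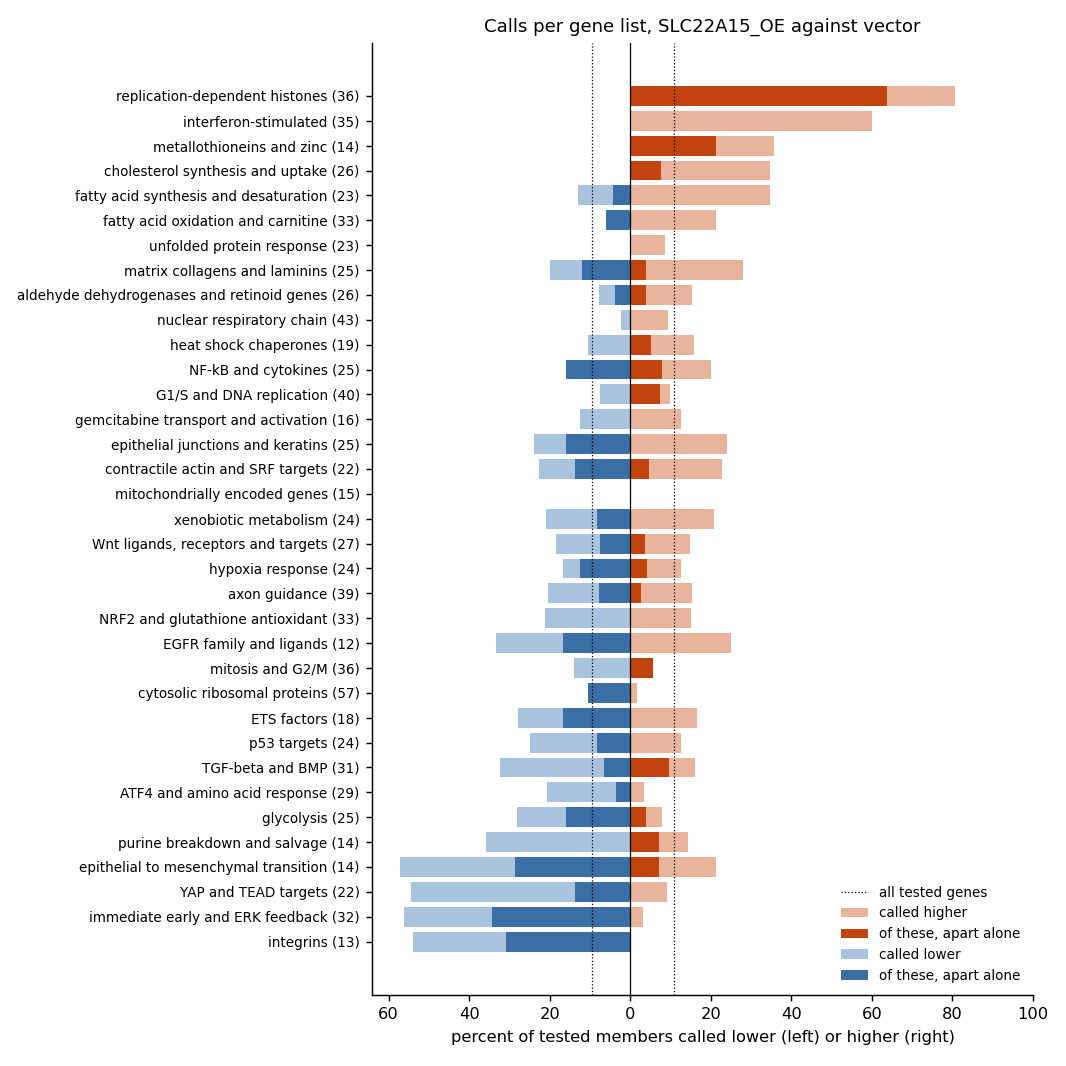
Percent of the tested members of each list (number in brackets, lists with at least 10 tested members) called lower, to the left, or higher, to the right, in SLC22A15_OE against vector; the dark part of a bar also passed the test against SLC22A10_OE, and dotted lines mark 9.58% and 10.8%, the shares over all tested genes. Replication-dependent histones reach 80.6% higher, mostly dark, and interferon-stimulated genes follow with 21 of 35 higher and no dark part.

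Replication-dependent histones supply the nucleosomes of newly made DNA, and their transcripts end in a stem-loop in place of a poly(A) tail. These libraries were depleted of ribosomal RNA and not selected for poly(A), so the transcripts were counted. Of 36 tested histone genes, 29 were higher in SLC22A15_OE (80.6%), 0 were lower, and 23 were higher in SLC22A15_OE alone. The median log2 fold change was 0.28, against 0.01 over all genes. HIST1H1D, a linker histone, rose from 139, 149.5 and 150.0 CPM to 204, 212 and 219 CPM (log2 fold change 0.53, limma adjusted p = 6.6e-06). HIST1H3B, a histone H3 gene, rose from 284, 265 and 278 CPM to 363, 347 and 337 CPM, and HIST2H2BF, a histone H2B gene, from 336, 305 and 327 CPM to 408, 418 and 407 CPM. Means in SLC22A10_OE were 185, 287 and 277 CPM. All 36 log2 fold changes were above 0, from 0.06 to 0.53. Histone genes are near-identical copies, and reads may be shared among them. Leaving out 1 library gave 20 to 32 higher members. Histone transcripts are made during DNA replication, so the cell cycle lists stand beside them: of 40 G1/S and replication genes, 4 were higher and 3 lower, and of 36 mitosis genes, 2 were higher and 5 lower. Without vector library 3, 2 G1/S genes were higher and 3 mitosis genes lower, and without vector library 1, 9 mitosis genes were lower. The higher mitosis count was 1 without vector library 2 or 3 or SLC22A15_OE library 1. With the replicate block, 16 G1/S genes were higher and 18 mitosis genes lower, and without the 3 libraries with little mitochondrial ribosomal RNA, 11 and 17.

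Immediate early genes are switched on within minutes of a growth signal, and the ERK feedback genes that follow (dual-specificity phosphatases, Sprouty and SPRED proteins) turn the signal down again. Of 32 tested genes of this list, 18 were lower in SLC22A15_OE and 1 was higher, with 11 lower in SLC22A15_OE alone. The replicate block gave 22 lower and 4 higher, and 4 were also higher without vector library 1. The median log2 fold change was -0.27. JUN, a subunit of the AP-1 transcription factor, stood at 246, 226 and 227 CPM in vector and 103, 103 and 90.3 CPM in SLC22A15_OE (log2 fold change -1.23, limma adjusted p = 2.27e-08). It was lower still in SLC22A10_OE, at 60.2 CPM, as was FOSL1, its partner FRA1, which went from 75.3, 65.2 and 73.6 CPM to 45.0, 46.6 and 43.5 CPM beside 14.1 CPM. ETV5, an ETS factor induced by ERK, fell in SLC22A15_OE alone, from 186, 185 and 187 CPM to 149, 152 and 151 CPM with 188 CPM in SLC22A10_OE, and so did DUSP6, described above. KLF6 fell from 147, 145 and 145 CPM to 108, 109.8 and 108 CPM.

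The exception was JUND, another AP-1 subunit, at 53.7, 37.7 and 37.8 CPM in vector libraries 1 to 3 and 90.4, 71.3 and 65.5 CPM in SLC22A15_OE (log2 fold change 0.81, SE 0.15). Library 1, the one with little mitochondrial ribosomal RNA, was the highest of its group in both, and without the 3 libraries of that kind the JUND log2 fold change was 0.84. The cyclic AMP response element, searched as TGACGTCA, which reads the same on either strand, lay within 250 bases upstream of the start of 2.89% of 11161 tested genes with a promoter in RefSeq, and of 2 of the 13 called members of this list that have one, JUND and DUSP1. No other of the 24 list members with a promoter held it. The 250 bases upstream of JUND (GRCh38.p14, chr19:18281623-18281872, minus strand) are shown as the promoter of the one member that rose, 5′ to 3′, with the match in capitals.
JUND: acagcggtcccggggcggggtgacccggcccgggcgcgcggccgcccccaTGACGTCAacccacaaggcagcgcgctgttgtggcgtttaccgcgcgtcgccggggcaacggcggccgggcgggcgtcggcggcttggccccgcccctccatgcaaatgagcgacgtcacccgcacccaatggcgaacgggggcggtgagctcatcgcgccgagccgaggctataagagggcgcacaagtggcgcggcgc

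Targets of YAP and TEAD, the transcription complex held back by the Hippo pathway, were mostly lower. Of 22 tested, 12 were lower and 2 higher, with 3 lower in SLC22A15_OE alone (1 without SLC22A15_OE library 2) and a median log2 fold change of -0.31. NT5E, the ecto-nucleotidase CD73 that makes adenosine, fell from 269, 298 and 284 CPM to 118, 123 and 125 CPM (log2 fold change -1.21, limma adjusted p = 9.11e-09), and reached 43.6 CPM in SLC22A10_OE. CYR61, a matricellular protein, fell from 265, 262 and 261 CPM to 191, 195 and 186 CPM, with 97.6 CPM in SLC22A10_OE. AXL and CRIM1 fell as well, CRIM1 by 0.33 on the log2 scale. The 2 that rose were DLC1, a RhoGAP, at 7.29, 7.82 and 7.58 CPM and 15.2, 14.7 and 16.2 CPM, and FSTL1, at 34.5, 34.3 and 34.5 CPM and 39.3, 43.3 and 43.6 CPM.

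CTGF, the connective tissue growth factor and a standard YAP target, was the called member with a TEAD match that changed most, at 16.9, 15.4 and 16.01 CPM in vector, 9.02, 8.71 and 7.12 CPM in SLC22A15_OE and a mean of 1.82 CPM in SLC22A10_OE (log2 fold change -0.88). The TEAD motif was searched as GGAATG on both strands and was found upstream of 9.25% of all tested genes with a promoter and of 2 of the 10 called members with one. Of all 16 list members with a promoter, called or not, 4 held it. CTGF has 3 matches in the 250 bases upstream of its start (GRCh38.p14, chr6:131951373-131951622, minus strand), printed 5′ to 3′ with the matches in capitals.
CTGF: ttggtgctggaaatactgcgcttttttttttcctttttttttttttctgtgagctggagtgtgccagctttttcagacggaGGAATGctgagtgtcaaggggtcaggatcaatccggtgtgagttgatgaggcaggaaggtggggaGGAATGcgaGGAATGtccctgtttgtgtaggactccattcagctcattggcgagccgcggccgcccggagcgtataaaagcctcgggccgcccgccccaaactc

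Integrins are the receptors that hold cells to the matrix. Of 13 tested integrin subunits, 7 were lower and 0 higher, with 4 lower in SLC22A15_OE alone and a median log2 fold change of -0.42. The replicate block gave 8 lower and 1 higher. Of the 13, 2 reached 1 CPM in 3 libraries only with SLC22A10_OE counted, and over the other 11 the median was -0.49. ITGA6, the laminin receptor subunit, stood at 58.1, 63.4 and 65.5 CPM in vector, 30.3, 28.4 and 29.3 CPM in SLC22A15_OE and 48.8 CPM in SLC22A10_OE (log2 fold change -1.06 against vector, limma adjusted p = 1.12e-07). ITGA5, the fibronectin receptor subunit, stood at 118, 109 and 112 CPM, 56.3, 54.8 and 55.6 CPM and 91.1 CPM, and ITGA3, another laminin receptor subunit, at 83.6, 69.3 and 71.0 CPM, 55.8, 47.8 and 50.2 CPM and 82.5 CPM. ITGB1, the beta subunit they share, fell by 0.49 on the log2 scale, and in SLC22A10_OE it had nearly the same mean, 683 CPM against 689 CPM.

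Of 14 genes of the epithelial to mesenchymal transition, 8 were lower and 3 higher. VIM, the mesenchymal filament vimentin, fell in SLC22A15_OE alone, from 2988, 3174 and 3110.2 CPM to 2539, 2616 and 2709 CPM with 3390.3 CPM in SLC22A10_OE. The 3 that rose were TAGLN, S100A4 (169, 171 and 176 CPM to 214, 235 and 231 CPM) and LOXL2 (413, 363 and 372 CPM to 479, 423 and 430.4 CPM), the last of which lost its call in 3 of 21 alternative settings. The count of lower members went to 4 without SLC22A15_OE library 3 and to 5 without vector library 2 or 3 or SLC22A15_OE library 1.

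Epithelial genes moved both ways. Of 25 junction and keratin genes, 6 were higher and 6 lower. CLDN4, a tight junction claudin, rose from 9.57, 8.13 and 8.59 CPM to 31.5, 26.9 and 25.5 CPM (log2 fold change 1.57), with 114 CPM in SLC22A10_OE, while CLDN1, another claudin, fell from 117, 121 and 119 CPM to 52.9, 51.5 and 54.6 CPM (log2 fold change -1.15). ELF3, an epithelial ETS factor, rose from 3.51, 4.08 and 3.18 CPM to 7.52, 6.50 and 6.75 CPM, and the mucin MUC1 from 4.34, 4.05 and 4.08 CPM to 8.54, 8.01 and 8.57 CPM. KRT18, the partner of KRT8, fell from 160.1, 163 and 162 CPM to 95.1, 95.3 and 95.8 CPM. SOX9, a transcription factor of duct cells, fell in SLC22A15_OE alone, from 133, 123 and 124 CPM to 95.7, 80.2 and 81.2 CPM with 156 CPM in SLC22A10_OE. A list of ductal and pancreatic epithelial markers, wider than the duct markers given at the start, had 8 tested genes. KRT8, KRT18 and SOX9 fell among them, and 2 rose (1 without vector library 3 or SLC22A15_OE library 2), MUC1 and ONECUT2, the latter at 65.6, 65.4 and 64.4 CPM in vector and 74.4, 75.8 and 74.2 CPM in SLC22A15_OE, with a call lost in 2 of 21 alternative settings.

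Lipid synthesis genes were more often called higher than lower. Of 26 genes of cholesterol synthesis and uptake, 9 were higher and 0 lower, with a median log2 fold change of 0.17, and 2 of the 9 were higher in SLC22A15_OE alone. The latter count was 4 without vector library 1, 1 without SLC22A15_OE library 2 or SLC22A10_OE library 2 or 3, and 6 with the term for libraries low in mitochondrial ribosomal RNA. INSIG1, the sterol-sensing brake on SREBP processing, rose from 10.5, 11.2 and 10.5 CPM to 28.6, 26.7 and 28.5 CPM (log2 fold change 1.30, limma adjusted p = 2.27e-08), with 30.3 CPM in SLC22A10_OE. SREBF2, which encodes the main transcription factor of this pathway, rose from 54.7, 49.7 and 51.0 CPM to 70.3, 66.4 and 67.1 CPM. FDFT1, squalene synthase, rose from 73.0, 70.1 and 75.3 CPM to 96.6, 96.1 and 98.7 CPM and CYP51A1, lanosterol demethylase, from 58.9, 66.4 and 66.0 CPM to 77.9, 87.3 and 84.5 CPM. Of the 9, 4 lie on chromosome 7 or 8, where many genes rose, INSIG1, CYP51A1 and FDFT1 among them. The replicate block gave 17 higher and 1 lower, and without the 3 libraries with little mitochondrial ribosomal RNA 13 were higher.

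Of 23 genes of fatty acid synthesis, 8 were higher and 3 lower, or 10 and 5 with the replicate block. Their median log2 fold change was 0.02, close to that of all genes, with 13 of the 23 above 0 and 10 below. SCD, stearoyl-CoA desaturase, stood at 279.9, 291 and 286 CPM in vector and 511, 511 and 503 CPM in SLC22A15_OE (log2 fold change 0.83, limma adjusted p = 1.02e-08), with 674 CPM in SLC22A10_OE. MLXIPL, the carbohydrate-sensing factor ChREBP, rose from 5.63, 4.36 and 4.56 CPM to 11.05, 10.5 and 9.56 CPM and lies on chromosome 7. SREBF1, the fatty acid counterpart of SREBF2, rose from 176, 135 and 146 CPM to 281, 240.4 and 229 CPM, with library 1 again the highest of either group. Without the 3 libraries low in mitochondrial ribosomal RNA the SREBF1 log2 fold change was 0.73, against 0.71 with them. ACSL4, which activates polyunsaturated fatty acids, fell from 101, 121 and 109 CPM to 58.3, 65.8 and 64.7 CPM. The sterol response element, searched as TCACNCCAC on both strands, lay upstream of 0.771% of all tested genes with a promoter. Of the 9 called cholesterol genes, 5 have a promoter in RefSeq, and 1 of these held it, SREBF2 itself (GRCh38.p14, chr22:41832855-41833104, plus strand). No other of the 20 cholesterol genes with a promoter held it. The 250 bases of SREBF2 are printed 5′ to 3′ with the match in capitals.
SREBF2: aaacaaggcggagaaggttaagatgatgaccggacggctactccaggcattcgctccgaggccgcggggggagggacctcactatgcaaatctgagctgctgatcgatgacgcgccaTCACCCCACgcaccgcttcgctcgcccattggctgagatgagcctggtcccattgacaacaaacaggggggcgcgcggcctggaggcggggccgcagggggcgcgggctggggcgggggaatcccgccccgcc

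Interferon-stimulated genes form the antiviral program that cells switch on through STAT and IRF factors. Of 35 tested, 21 were higher in SLC22A15_OE than in vector and 0 lower, and none was higher in SLC22A15_OE alone. Of the 35, 6 reached 1 CPM in 3 libraries only with SLC22A10_OE counted, where they were high, and had to differ from it. Among the other 29, 17 were higher than vector and 0 lower, with a median log2 fold change of 0.49. IFIT3, an antiviral protein of the IFIT family, stood at 4.37, 4.53 and 3.71 CPM in vector, 9.78, 11.1 and 11.3 CPM in SLC22A15_OE and a mean of 48.7 CPM in SLC22A10_OE (log2 fold change 1.17 against vector, limma adjusted p = 7.67e-07). IFITM1, a membrane protein that blocks virus entry, stood at 16.1, 16.3 and 17.7 CPM, 35.6, 36.0 and 36.4 CPM and 86.5 CPM in the same order. OASL and DDX60, an RNA helicase, had means of 2.25 and 12.7 CPM in SLC22A15_OE, between 0.406 and 6.19 CPM in vector and 26.4 and 41.7 CPM in SLC22A10_OE. The response element that STAT and IRF factors bind was searched in the short form GAAANNGAA on both strands. It lay upstream of 5.38% of all tested genes with a promoter and of 10 of the 16 called members with one. Of all 28 list members with a promoter, called or not, 17 held it. IFIT3, the called member with a match that changed most, holds 2 matches in its 250 bases (GRCh38.p14, chr10:89327747-89327996, plus strand), printed 5′ to 3′ with the matches in capitals.
IFIT3: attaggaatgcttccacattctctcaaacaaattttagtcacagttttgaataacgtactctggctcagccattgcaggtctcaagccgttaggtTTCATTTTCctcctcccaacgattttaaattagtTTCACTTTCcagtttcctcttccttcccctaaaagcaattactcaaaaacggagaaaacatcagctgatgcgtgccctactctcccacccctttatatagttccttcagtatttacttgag

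Metallothioneins bind zinc and copper, and the SLC39 (ZIP) transporters bring zinc into the cell. Of 14 tested genes of this list, 5 were higher and 0 lower, and 3 of the 5 were higher in SLC22A15_OE alone. The replicate block gave 6 higher and 1 lower. Those higher in SLC22A15_OE alone were MT1E (157, 140.5 and 143 CPM in vector, 206, 198 and 192 CPM in SLC22A15_OE), MT1X (46.5, 39.6 and 46.2 CPM and 66.1, 63.2 and 59.4 CPM) and the zinc and iron transporter SLC39A14 (208, 204 and 195 CPM and 254, 246 and 247 CPM). Their means in SLC22A10_OE were 171, 47.8 and 181 CPM. SLC39A8 rose from 26.5, 28.6 and 27.5 CPM to 51.3, 51.7 and 50.3 CPM and had 50.6 CPM in SLC22A10_OE. The list as a whole had a median log2 fold change of 0.02, close to that of all genes. Metallothionein genes are close copies of each other, and their reads may be shared. The metal response element, TGCNCNC on either strand, was found upstream of 56.1% of all tested genes with a promoter, and upstream of 1 of the 2 called members with a promoter, MT1X. Of all 10 list members with a promoter, called or not, 5 held it.

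Genes of TGF-beta and BMP signalling moved both ways. Of 31 tested, 10 were lower and 5 higher, or 14 and 8 with the replicate block. SMAD7, the inhibitory SMAD, fell from 7.78, 6.39 and 6.95 CPM to 2.06, 1.77 and 2.63 CPM (log2 fold change -1.36), LTBP2, a binding protein of the extracellular matrix, from 199, 177 and 183 CPM to 86.8, 83.9 and 81.4 CPM, and NOG, the secreted BMP antagonist noggin, from 35.6, 27.7 and 30.7 CPM to 15.4, 13.4 and 13.3 CPM. All 3 were also low in SLC22A10_OE, at 1.23, 87.3 and 3.96 CPM. ID1, ID2 and ID3, which BMP signals are known to induce, were higher in SLC22A15_OE than in either other group. ID3 stood at 165, 125 and 139 CPM in vector and 260.4, 224 and 226 CPM in SLC22A15_OE, and ID1 at 101, 82.4 and 87.1 CPM and 138, 119 and 119.6 CPM, with library 1 the highest of both groups for either gene. Leaving out the 3 libraries low in mitochondrial ribosomal RNA, the ID3 log2 fold change was 0.77 and the ID1 log2 fold change was 0.49, against 0.73 and 0.47 with them. SLC22A10_OE had a mean of 182 CPM for ID3, above the 143 CPM of vector (limma adjusted p = 0.00419), and of 78.5 CPM for ID1, against 90.3 CPM.

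In the Wnt list, 4 of 27 genes were higher and 5 lower, the latter 3 without vector library 2 or 3, SLC22A15_OE library 3 or SLC22A10_OE library 2. FZD8, a Wnt receptor, fell from 22.7, 17.5 and 19.8 CPM to 7.27, 5.90 and 5.18 CPM (log2 fold change -1.56, limma adjusted p = 1.41e-06), beside 7.97 CPM in SLC22A10_OE, while DKK1 and ROR1 rose as given above. In the EGFR list, 3 of 12 were higher and 4 lower, and without SLC22A15_OE library 1 the higher count was 1. EGFR itself fell from 143, 137 and 141 CPM to 81.1, 76.6 and 77.5 CPM, with 61.6 CPM in SLC22A10_OE, and its ligand HBEGF fell from 7.23, 6.24 and 5.94 CPM to 3.14, 3.15 and 3.92 CPM, whereas the ligand AREG rose from 24.8, 29.5 and 31.6 CPM to 44.5, 48.9 and 50.4 CPM.

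Among 14 genes of purine breakdown and salvage, 5 were lower and 2 higher (1 without SLC22A15_OE library 2 or 3). Besides XDH and NT5E, PNP, purine nucleoside phosphorylase, fell from 136, 129 and 128 CPM to 94.3, 94.5 and 96.4 CPM and ADK, adenosine kinase, from 54.9, 59.3 and 58.6 CPM to 42.6, 46.7 and 47.3 CPM. None of the 5 passed the test as lower than in SLC22A10_OE, where PNP and ADK stood at 63.5 and 44.1 CPM.

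Of 25 glycolysis genes, 7 were lower and 2 higher, and 4 of the 7 were lower in SLC22A15_OE alone. HK2, hexokinase, fell from 117, 115 and 117 CPM to 83.3, 86.8 and 86.6 CPM. TXNIP, a brake on glucose uptake, fell from 56.4, 56.4 and 55.9 CPM to 44.3, 44.8 and 43.4 CPM, while SLC22A10_OE held a mean of 368 CPM. MPC2, a subunit of the mitochondrial pyruvate carrier, rose in SLC22A15_OE alone, from 71.9, 73.3 and 79.2 CPM to 99.5, 103 and 106 CPM. The count of lower members was 4 without vector library 3 or SLC22A15_OE library 2 or 3 and 12 with the replicate block, which also gave 4 higher, and the count lower in SLC22A15_OE alone was 1 without SLC22A15_OE library 2 or 3 and 2 without vector library 3 or SLC22A10_OE library 2.

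Inflammatory genes of the NF-kB list divided too. Of 25, 5 were higher and 4 lower, or 8 and 5 with the replicate block. The lower 4 were IL32, IL1B, LIF and CXCL8, all lower in SLC22A15_OE alone. IL1B, interleukin 1 beta, stood at 9.60, 10.97 and 11.4 CPM in vector, 5.40, 5.38 and 6.31 CPM in SLC22A15_OE and 8.17 CPM in SLC22A10_OE. The chemokine CXCL8 stood at 193, 224 and 214 CPM, 158, 171 and 171 CPM and 228 CPM. CXCL1 and CXCL5, chemokines of the same family as CXCL8, rose in SLC22A15_OE alone, CXCL1 from 169, 202 and 193 CPM to 241, 262 and 268 CPM with 202 CPM in SLC22A10_OE.

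Genes for the basic machinery mostly had small log2 fold changes. Of 57 cytosolic ribosomal proteins, 6 were lower, all 6 in SLC22A15_OE alone, and 1 was higher, with a median log2 fold change of -0.10. The log2 fold change was below 0 in 48 of the 57 and above 0 in 9. The lower count was 1 without vector library 3 or SLC22A15_OE library 2, 2 without SLC22A15_OE library 3, 3 without SLC22A10_OE library 2 and 10 without vector library 1. It was 33 with the replicate block, which called 2942 of all 14554 tested genes lower. RPL23 fell from 515, 519 and 528 CPM to 430.4, 438 and 445 CPM and RPL8, on chromosome 8, rose from 624, 586 and 608 CPM to 800.4, 764 and 788 CPM. Of 43 nuclear genes of the respiratory chain, 4 were higher and 1 lower (2 without vector library 1), or 9 and 8 with the replicate block. None of 15 mitochondrially encoded genes passed the limma test, with a median of -0.05, while the replicate block called 2 higher and 7 lower.

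Genes that rose were gathered in stretches of chromosomes. In 10 Mb bins of RefSeq gene starts (GRCh38) with at least 20 tested genes, 15 of 245 bins had a median log2 fold change of at least 0.2. They held 774 genes, of which 497 were higher than vector (64.2%), and these made up 31.6% of all higher genes and 41.3% of the genes higher in SLC22A15_OE alone. In the 228 bins with medians nearer to 0, 7.80% of the genes were higher. The 15 bins were chosen by the fold changes themselves, so these shares describe them and test nothing. They lie on chromosome 1 from 220 Mb, chromosome 7 from 60 to 80 Mb and from 120 Mb, chromosome 8 from 10 to 40 Mb and from 140 Mb, and chromosome 16 from 20 to 40 Mb.

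Chromosome 7 showed the pattern in both directions. From 60 Mb on, 275 of 478 tested genes were higher (57.5%, median log2 fold change 0.36), and before 60 Mb 92 of 233 were lower (39.5%, median -0.21). Over the 478 genes, the median difference from the vector mean was 0.36, 0.37 and 0.36 in SLC22A15_OE libraries 1 to 3 and between -0.01 and 0.01 in the vector libraries. The median of the same genes in SLC22A10_OE, against the same vector libraries, was 0.31, and below 60 Mb it was -0.20. On chromosome 8, 179 of 449 genes were higher (39.9%), and on chromosome 1 from 220 Mb, 88 of 145 (60.7%). The bounds of these regions were chosen after the values were seen. The running medians along the chromosomes show the steps. Against SLC22A10_OE, the medians of the 15 bins lay between -0.12, on chromosome 7 from 140 to 150 Mb, and 0.15, on chromosome 16 from 20 to 30 Mb. The bin of chromosome 7 from 20 to 30 Mb had a median of -0.28 against vector and -0.14 against SLC22A10_OE.

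Chromosomes 7 and 8 held 7.97% of the tested genes, 29.1% of the higher genes and 36.2% of the genes higher in SLC22A15_OE alone. They held 10.8% of the lower genes and 9.49% of the genes lower in SLC22A15_OE alone. Of the risers described above, ZNF467, PRKAG2, ACTR3B, LRRC4, STAG3L2, INSIG1, MLXIPL and CLDN4 lie in the 15 bins on chromosome 7, and FDFT1, DLC1, LOXL2, SLC39A14 and RPL8 in those on chromosome 8. HDAC9 rose on chromosome 7 outside them, before 60 Mb. Of the fallers described above, FSCN1 and EGFR lie on chromosome 7 before 60 Mb, where 39.5% of the tested genes were lower. None of the 36 histone genes, 35 interferon-stimulated genes or 9 SLC22 genes lies on chromosome 7 or 8. Outside these chromosomes 1101 of 13231 genes were higher (8.32%) and 1234 lower (9.33%).

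**Figure D5:**
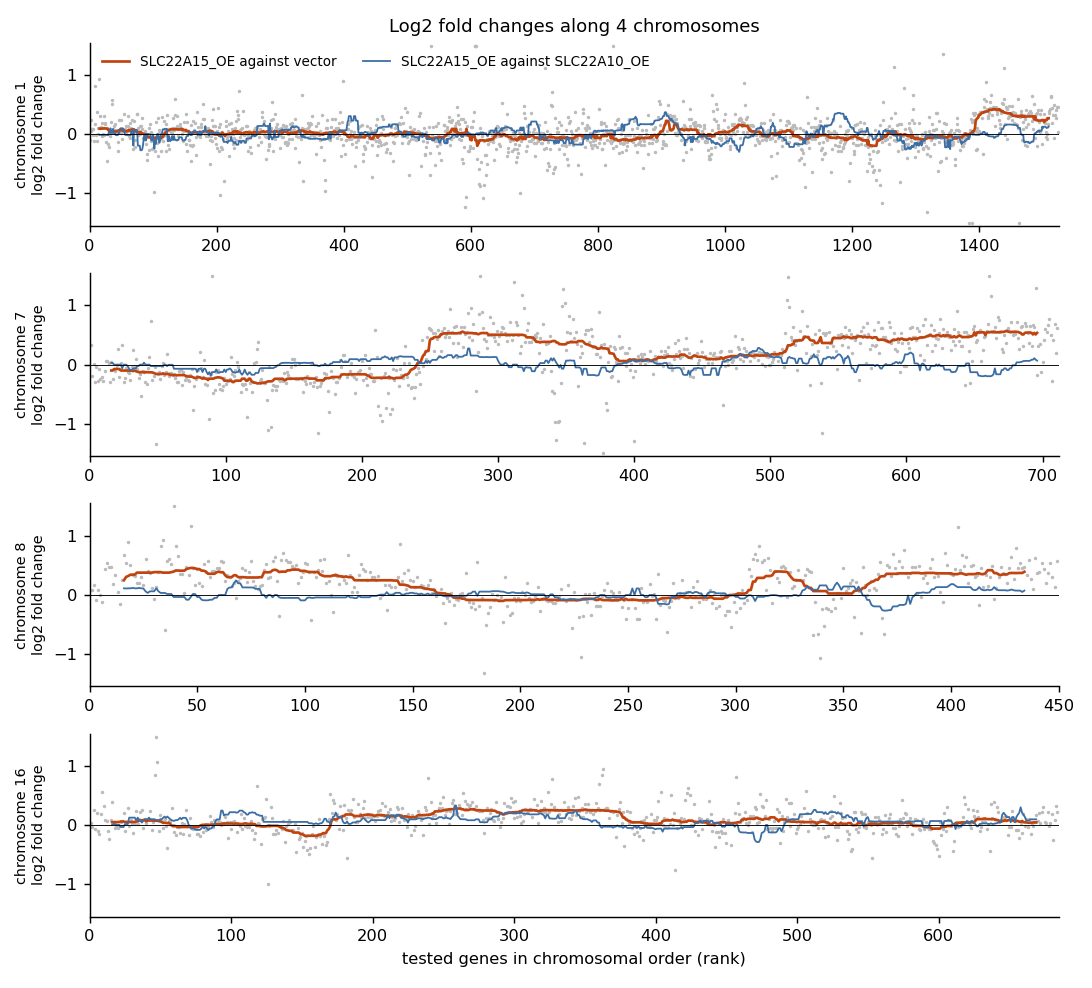
Log2 fold changes of tested genes in their order along chromosomes 1, 7, 8 and 16; grey points are single genes in SLC22A15_OE against vector, drawn at 1.5 where larger in either direction, and lines are running medians over 31 genes. The orange line, against vector, steps up at the end of chromosome 1 and over most of the later genes of chromosome 7, and lies below 0 in the early genes of chromosome 7; the blue line is the same against SLC22A10_OE, with bin medians from -0.12 to 0.15 where the orange bin medians reach 0.2 or more.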

How the data were processed

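The authors deposited 1 table of CPM per gene (counts per 1000000 reads of a scaled library size) for 9 libraries, 3 per group, per the file headers. Per the labels' protocols, total RNA was depleted of ribosomal RNA and made into strand-specific libraries. The submitters' processing notes name edgeR and list the builds hg38 and mm9 without a role; no aligner, counter, strand setting or annotation is given in the sources used here. Columns carry numbers 1 to 3 that the labels' own suffixes do not match, so libraries were mapped to groups only. The symbols of 16563 of 16750 genes came from a deposited comparison table by Entrez identifier, and the values of the authors' comparison tables were not used.

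Genes with at least 1 CPM in 3 of the 9 libraries were tested on log2(CPM + 1) with limma 3.58.1 (eBayes with trend, R 4.3.3), all 9 libraries in 1 fit with 6 residual degrees of freedom, two-sided, with Benjamini-Hochberg adjustment over 14554 genes and a threshold of 0.05. The procedure was tested on simulated data, drawn with a common spread for all genes and no effect shared between libraries. Such data cannot tell how the fit behaves where libraries share effects, as they do here. Whole reads were recovered from the CPM values (100% came out whole, to within 0.1 read) and tested with edgeR 4.0.16, which called 1684 genes higher and 1311 lower, and with DESeq2 1.42.0. A level of 1 CPM has a counting SD of 15.2% to 19.0%. Replicate libraries differed beyond sampling noise.

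Named genes are the SLC22 genes, the 12 largest changes each way against vector and in SLC22A15_OE alone (at least 5 CPM in the higher group, no overlap of groups, no placeholder names), up to 5 members of each list by adjusted p with those against its majority, and neighbours within 1 Mb of the 3 largest risers. The genes with printed promoters are the called list members with a motif and the largest change. The comparison, the 42 gene lists and the choice of what to describe were made with earlier results of these data known. Positions and promoters are from RefSeq on GRCh38.p14, matched for 14391 and 11161 tested genes.

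Deviations from the group means correlated between same-numbered vector and SLC22A15_OE libraries (0.57, 0.31 and 0.19), although no label explains these numbers. They were used as pairs only in the replicate block fits. The fit behind the adjusted p-values and the main counts holds no pairing term. Libraries 2 and 3 are not told apart by these correlations: vector 2 with SLC22A15_OE 3 gave 0.35 and vector 3 with SLC22A15_OE 2 gave 0.16. Vector 1 and SLC22A10_OE 1 gave -0.41. SLC22A10_OE 3 gave 0.52 with vector 1 and 0.48 with SLC22A15_OE 1, and these are the 3 libraries low in mitochondrial ribosomal RNA. The numbers of SLC22A10_OE therefore do not pair with those of the other groups, although the replicate block over all 9 libraries joins them. Whether the numbers of vector and SLC22A15_OE mark true pairs or only this trait was not tested.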

Additional observations from a re-analysis of the deposited data

How the results depend on the processing

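Over 21 alternative settings, 198 of the 235 named genes that passed the test kept their call in every one and none changed direction. Many of these genes were chosen for large changes or small adjusted p-values in the same data, which favours keeping the call. Of all called genes, 1117 of the 1572 higher and 925 of the 1394 lower kept their call without vector library 3. Leaving out each of the 9 libraries in turn gave 1134 to 1922 genes higher and 940 to 1604 lower than vector, 297 to 513 higher and 354 to 549 lower in SLC22A15_OE alone, and 140 to 206 higher and 115 to 166 lower genes of the lists. The SLC22A15 log2 fold change ran from 3.37 to 3.48 in the same settings, and the chromosome 7 median from 60 Mb on from 0.35 to 0.37. With a term that marks the 3 libraries low in mitochondrial ribosomal RNA, 2868 genes were higher and 2740 lower, 941 and 1029 in SLC22A15_OE alone, and 272 and 270 among the lists. Without those 3 libraries, a setting chosen after seeing the data, 2157 genes were lower, 712 were higher and 774 lower in SLC22A15_OE alone, and 234 genes of the lists were lower. The median of chromosome 7 from 60 Mb on was then 0.35; it was 0.39 with a pseudocount of 0.25 CPM, 0.23 with 5 CPM, 0.33 with each library centred on its median, 0.42 with edgeR on library sizes, 0.40 with TMM scaling and 0.40 with DESeq2. Centring on the median gave 1351 higher and 1683 lower genes.

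With the replicate block over all 9 libraries, 1481 genes were higher and 1300 lower, with 401 and 471 in SLC22A15_OE alone. With the block among only the 6 libraries of the comparison, chosen after seeing the data, the counts were 2980 and 2942, and 275 and 282 among the lists. They included 1571 of the 1572 higher and all 1394 lower genes. That fit has 2 residual degrees of freedom and leans on a prior of 38.0 shared across genes, against 6 and 6.84 in the fit used above, and the cause of the larger counts was not tested. At 1 CPM the counting error alone is 15.2% to 19.0%, and more below it, so small changes of such genes were not detectable at this depth. Of the tested genes, 407 reached 1 CPM in 3 libraries only with SLC22A10_OE counted; leaving them out of the lists, a choice made after seeing the data, is given for the interferon-stimulated genes and the integrins.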

Other observations

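Axon guidance genes, which also steer epithelial and endothelial cells, moved in both directions, with 6 of 39 tested higher and 8 lower in SLC22A15_OE than in vector. The counts were 13 and 12 with the replicate block among the 6 libraries, and the higher count was 10 without vector library 1 and 4 without vector library 2. Fatty acid oxidation and carnitine genes, the list closest to the known substrates of SLC22A4 and SLC22A5, had 7 of 33 higher and 2 lower, with a median log2 fold change of 0.09, and the higher count was 4 without vector library 2 or 3 or SLC22A15_OE library 1 and 11 with the block. The lower count was 1 without vector library 2 or 3 or SLC22A15_OE library 1 or 2. In SLC22A15_OE alone, 0 of these genes were higher and 2 lower. SLC22A10_OE, against the same vector libraries, had 29 of the 33 higher and 0 lower, where 67.2% of all tested genes were called in either direction. Aldehyde dehydrogenases and retinoid genes had 4 of 26 higher and 2 lower, the former 2 without SLC22A15_OE library 2 or with each library centred on its median, and 7 with the block. Antioxidant genes of the NRF2 and glutathione list had 5 of 33 higher and 7 lower, with 0 in SLC22A15_OE alone, and with the block 9 and 14. The higher count was 2 without vector library 2 or 3 or SLC22A15_OE library 2 or 3, and 3 without SLC22A15_OE library 1 or SLC22A10_OE library 2. Genes of gemcitabine transport and activation had 2 of 16 higher and 2 lower. The higher count was 1 without any 1 library other than vector library 1, and the lower count was 0 without vector library 3 or any 1 SLC22A15_OE library and 1 without vector library 1 or 2. With the block they were 4 and 3. The unfolded protein response had 2 of 23 higher and 0 lower by limma, where the replicate block called 4 and 8. The counts of the fit used above stand beside 10.8% higher and 9.58% lower over all genes tested. Those with the block stand beside 2980 higher and 2942 lower of 14554 genes.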
